A study of Mus musculus with 2 samples.

Results

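In a pair of coronal mouse brain sections, 766 of 222933 bins of 16 µm were chosen by their counts of Fibcd1 and Spink8, genes used as markers of hippocampal CA1 pyramidal neurons. A bin had to hold at least 100 UMIs, where a UMI (unique molecular identifier) counts 1 captured probe molecule. It was chosen when the 3 by 3 block of bins around it held at least 4 UMIs of Fibcd1 plus Spink8 and fewer than 3 UMIs of C1ql2 plus Dsp, genes best known from granule neurons of the dentate gyrus. The rule took 358 of 119617 bins (0.299%) in the section at 3 days and 408 of 103316 bins (0.395%) in the section at 28 days. Levels of these 4 genes, and every contrast between the chosen bins and the rest of a section, follow from the choice and are given as description.

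Both mice were C57Bl6 males aged 3 months with a controlled cortical impact (CCI), an injury made by a sudden blow to the surface of the brain. There was 1 section of 10 µm from 1 mouse 3 days after injury and 1 from another mouse 28 days after injury, and no sham or uninjured section was analysed here. The tissue had been perfused with PFA, embedded in paraffin and profiled with Visium HD, in which pairs of probes hybridise to RNA in the section and are read out by position on a slide. The injured side was taken as columns below 130 of the bin array at 3 days and below 240 at 28 days. Gfap, the intermediate filament of astrocytes, stood at 1292 and 1305 CPM (UMIs of a gene per 1000000 UMIs) over the whole injured side at 3 and 28 days, against 314 and 180 CPM over the whole opposite side.

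With 1 section at each time, no difference could be tested, and time, mouse and section cannot be told apart. Bins of a section are not replicates, a bin can hold parts of several cells, and fewer cells of a type cannot be told apart from less RNA per cell. Values are summed counts over bins with exact 95% intervals in brackets or parentheses, which cover counting error only. A difference of at least 1.5-fold is called higher or lower, on the log2 scale with 0.5 UMI added to each count. A gene was measured in a comparison when both sets of bins together held at least 100 UMIs of it. Over the sections, 121967 and 105589 bins were deposited with a median of 836 and 596 UMIs, and 84781 bin names occur in both sections because they name array positions, not cells.

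Pyramidal neurons of CA1 carry the main output of the hippocampus and receive their strongest input from CA3 neurons. The fields are told apart by gene expression. Wfs1, Mpped1, Man1a and Tyro3 are used for CA1, Amigo2, Rgs14, Pcp4, Map3k15, Cacng5 and Ntf3 for the small field CA2, and Bok, Iyd, Grik4 and Nectin3 for CA3. Spink8 encodes a Kazal-type serine protease inhibitor and lies on chromosome 9 (109812280 to 109826633, plus strand, GRCm38). Fibcd1 encodes a membrane receptor that binds acetylated sugars such as chitin and lies on chromosome 2 (31813290 to 31846005, minus strand).

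The 2 marker genes chose different tissue. In 209 bins at 3 days and 223 bins at 28 days the block held more Spink8 than Fibcd1 UMIs (Spink8 bins), in 144 and 185 bins it held more Fibcd1 (Fibcd1 bins), and 5 bins at 3 days held equal numbers. This split was made after the data were seen. The Spink8 bins held 153 and 198 UMIs of Spink8 and only 4 and 2 of Fibcd1. The Fibcd1 bins held 0 UMIs of Spink8 in either section. Spink8 bins were deeper, with 3326 and 2817 UMIs per bin, than Fibcd1 bins, with 2075 and 1824, and both were deeper than the other bins of the opposite side, with 1022 and 829.

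**Figure D1:**
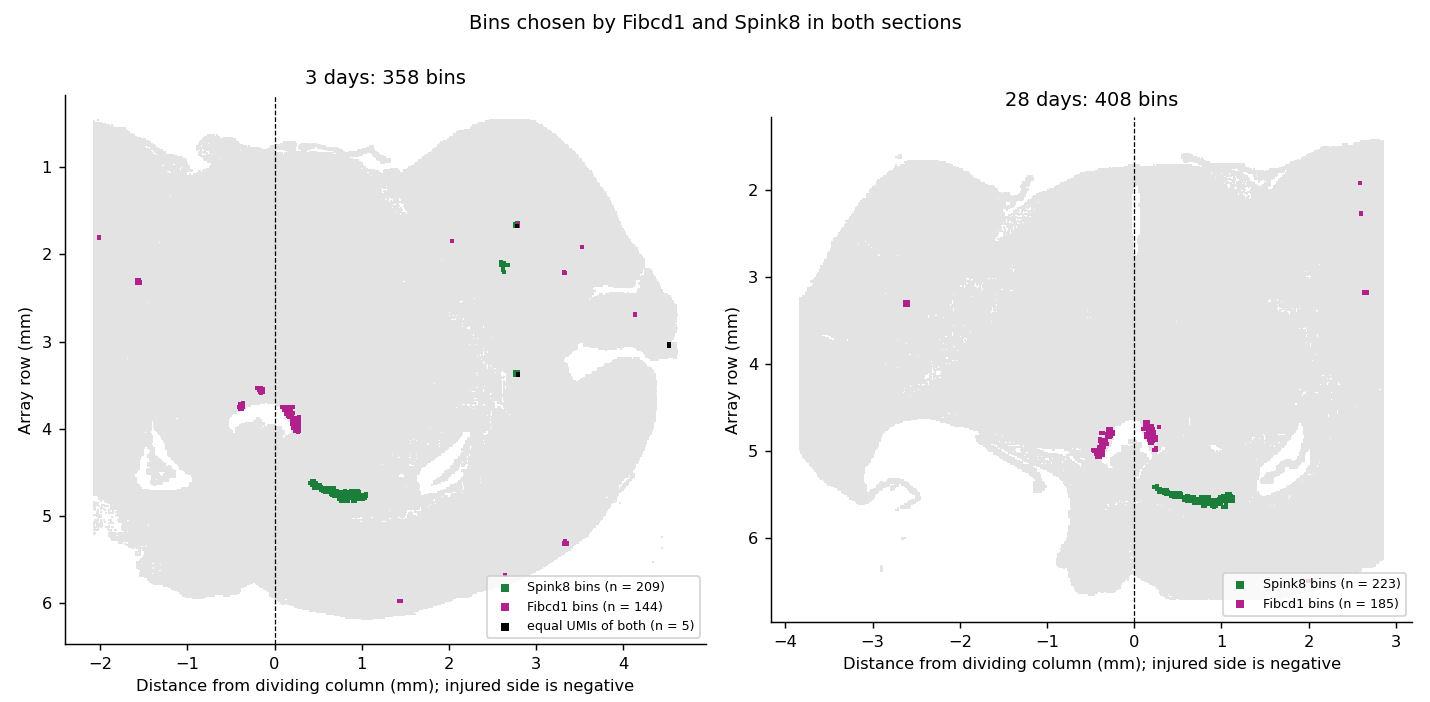
Position of the chosen bins in the section at 3 days (left) and 28 days (right), with distance from the dividing column in mm on the horizontal axis (injured side negative) and array row in mm on the vertical axis. Grey marks bins of at least 100 UMIs, green the Spink8 bins (209 and 223), purple the Fibcd1 bins (144 and 185) and black the 5 bins with equal counts; the green arc lies on the opposite side in both sections, while purple patches flank the dividing column.

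All 209 and 223 Spink8 bins lay on the opposite side. At 3 days 186 of them formed an arc of connected patches of 137 and 49 bins, 408 to 1048 µm from the dividing column. At 28 days 209 of them formed an arc 344 to 1128 µm away, the largest of its patches holding 167 bins. The arc lay at a like distance in both sections. On the injured side the highest block held 2 UMIs of Spink8 at 3 days and 3 at 28 days, against 15 and 21 on the opposite side. Spink8 over the whole injured side came to 27 UMIs at 0.719 CPM (0.474 to 1.05) at 3 days and 52 UMIs at 1.40 CPM (1.05 to 1.84) at 28 days, against 4.63 CPM (4.18 to 5.12) and 6.77 CPM (6.04 to 7.58) on the whole opposite side. Lowering the block threshold to 3 UMIs gave 0 Spink8 bins on the injured side at 3 days and 6 at 28 days.

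Where the Spink8 bins would fall on the injured side, if the section were symmetric about the dividing column, 186 of 209 positions at 3 days and 96 of 223 at 28 days held bins of at least 100 UMIs. At 3 days the other 23 are the bins outside the arc, which lie farther out than the injured side of the array is wide (2080 µm), so every mirrored position of the arc held such a bin. Bins at mirrored positions were shallow, with 475 and 569 UMIs per bin.

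The label of CA1 pyramidal neurons went against the other listed CA1 genes. Of 5 listed, 4 (Wfs1, Mpped1, Man1a and Tyro3) were at least 1.5-fold lower per 1000000 UMIs in the Spink8 bins than in the other bins of the opposite side in both sections, and the other, Pou3f1, was too low to compare. The Spink8 bins were over 3 times as deep as the other bins, and the count rests on that scale at 3 days. Counted with Pou3f1, which had 0 UMIs, 5 genes were lower in each section, but 1 at 3 days and 4 at 28 days with UMIs per bin as the scale. At 3 days it was 3 at 2-fold and 3 with a pseudocount of 5. Over all genes in this contrast, 10.7% of 13376 were higher and 35.8% lower at 3 days, and 10.6% of 12740 higher and 38.6% lower at 28 days, with medians of -0.26 and -0.32. Pou3f1, a POU domain transcription factor, had 0 UMIs in the Spink8 bins and only 2.89 and 4.24 CPM in the other bins, under the 4.32 and 4.78 CPM that 3 counts allow, so its difference was not detectable at this depth. Wfs1, which encodes a protein of the endoplasmic reticulum, stood at 47.5 and 6.37 CPM in the Spink8 bins against 87.8 and 60.4 CPM in the other bins. Mpped1 stood at 7.19 and 11.1 CPM against 104 and 75.9, and Tyro3, a receptor tyrosine kinase, at 28.8 and 7.96 CPM against 126 and 105. Cortex, which also expresses several of these genes, is among the other bins.

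Of the 33 Wfs1 UMIs in Spink8 bins at 3 days, 25 lay in the 23 Spink8 bins outside the arc, 2600 to 2792 µm from the dividing column, at 743 CPM (481 to 1098). Those 23 bins held 1 UMI of Amigo2. Within the arc Wfs1 came to 12.1 CPM (5.22 to 23.8) at 3 days and 6.65 CPM (1.81 to 17.0) at 28 days, so the arc was low in Wfs1 in both sections.

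Genes listed for CA2 led the Spink8 bins instead. Amigo2, an adhesion molecule, came to 422 UMIs at 607 CPM (550 to 668) at 3 days and 679 UMIs at 1081 CPM (1001 to 1165) at 28 days, against 42.2 and 56.4 CPM in the other bins of the opposite side. Rgs14, a regulator of G protein signalling that limits plasticity in CA2, came to 338 CPM (296 to 384) and 638 CPM (577 to 704), against 22.2 and 18.9 CPM. These are log2 differences of 3.85 and 4.26 for Amigo2 and 3.93 and 5.08 for Rgs14. Map3k15, a kinase, stood at 47.5 and 212 CPM against 8.64 and 11.7, Ntf3, a neurotrophin, at 31.6 and 66.9 CPM against 3.15 and 2.43, and Cacng5, an AMPA receptor auxiliary subunit, at 86.3 and 131 CPM against 21.2 and 22.9. Thus 5 of the 6 listed CA2 genes were higher in each section, with medians of 2.92 and 4.22. Pcp4, a calmodulin-binding protein, was past the fold in neither section, at 1072 and 2214 CPM against 1493 and 1963.

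CA3 genes were higher too at 3 days and less so at 28 days. Grik4, a kainate receptor subunit, stood at 223 and 181 CPM in the Spink8 bins against 37.3 and 39.3 in the other bins, and Nectin3, an adhesion molecule, at 232 and 97.1 against 71.6 and 68.2. Bok, a BCL2 family member, stood at 183 and 63.7 CPM against 67.6 and 75.1, and Iyd, which recycles iodide, at 69.0 and 20.7 CPM against 7.51 and 7.03. All 4 were higher at 3 days (median 2.14) and 2 of 4, Grik4 and Iyd, at 28 days (median 1.07).

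The Spink8 bins were rich in RNA of pyramidal neurons at large. Hpca, the calcium sensor hippocalcin, reached 4435 and 6243 CPM against 383 and 513, and Neurod6, a transcription factor of excitatory forebrain neurons, 921 and 767 CPM against 83.1 and 76.1. Of 12 listed pyramidal neuron genes, 9 were higher at 3 days and 10 at 28 days, with medians of 1.26 and 1.68 and 0 lower. Prox1, which marks dentate granule neurons, stood at 7.19 and 1.59 CPM. Among genes of at least 200 UMIs in the Spink8 bins, the 10 highest over the other bins included Rgs14, Amigo2, Cabp7, Hpca, Neurod6, Wipf3, Ccdc3 and Prdm8 in both sections. With a minimum of 50 UMIs, Il16 (log2 4.91 and 4.41) and Olfml2b (4.18 and 4.32) also came among the 10 in both. These bins are called Spink8 bins here, after the gene that chose them, and not CA1 bins.

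**Figure D2:**
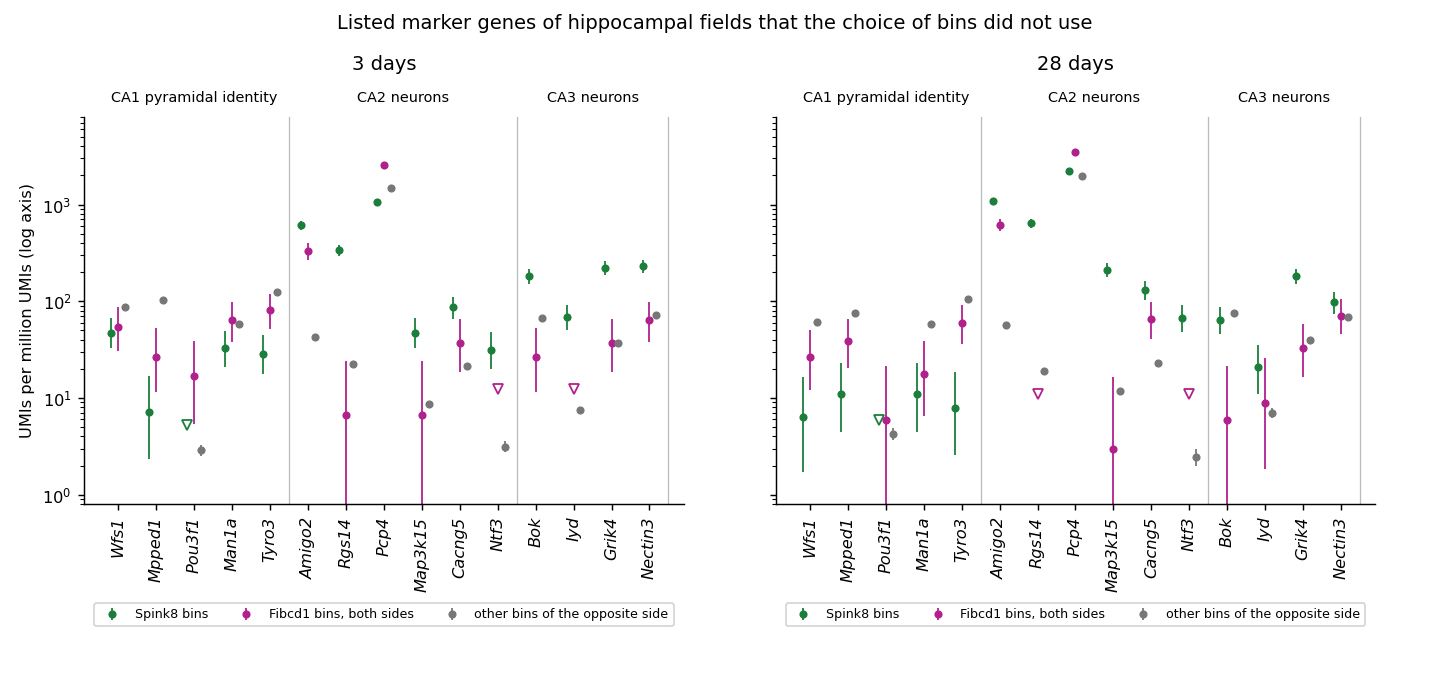
Levels in UMIs per 1000000 UMIs (log axis) of the listed CA1, CA2 and CA3 genes in Spink8 bins (green), Fibcd1 bins of both sides (purple) and other bins of the opposite side (grey) at 3 days (left) and 28 days (right), with exact 95% counting intervals; open triangles mark genes with 0 UMIs, drawn at the upper bound. Apart from Pou3f1, whose upper bound lies above it, CA1 genes in Spink8 bins lie below the grey points (Wfs1 47.5 and 6.37 against 87.8 and 60.4), and Amigo2 and Rgs14 lie above them.

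Bins on either side of the threshold of 4 UMIs held these genes. Among Spink8-led blocks, the 51 bins with 4 UMIs at 3 days held Amigo2 at 328 CPM and Rgs14 at 231 CPM, and the 93 bins with 3 UMIs held 289 and 163 CPM. At 28 days the 56 bins with 4 UMIs held 853 and 444 CPM and the 67 bins with 3 UMIs 725 and 378 CPM. Wfs1, listed for CA1, stood at 119 CPM in the bins with 4 UMIs and 396 CPM in those with 3 at 3 days, both above the 87.8 CPM of the other bins of the opposite side, and at 8.71 and 0 CPM at 28 days. Among Fibcd1-led blocks Tac2 stood at 727 CPM in the 55 bins with 4 UMIs and 334 CPM in the 150 bins with 3 at 3 days, and at 1182 and 876 CPM in 68 and 146 bins at 28 days.

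Genes of oligodendrocytes and homeostatic astrocytes were low in the Spink8 bins. Against their surroundings, taken as bins 64 to 192 µm away on the same side, all 10 oligodendrocyte genes were lower (medians -3.24 at 3 days and -4.12 at 28 days), as were all 11 homeostatic astrocyte genes (-1.52 and -2.04). Of measured reactive astrocyte genes, 5 of 7 and 2 of 3 were lower (-1.01 and -3.17) and 0 higher. Against the other bins of the opposite side, 5 of 11 were higher and 2 lower at 3 days (0.40). At 28 days 1 of 10 was higher and 9 lower (-1.64). The Spink8 bins held 3326 and 2817 UMIs per bin against 1011 and 575 in the surroundings, and levels per bin were not compared. At 3 days the surroundings also took in bins around the 23 Spink8 bins outside the arc. Over all genes here, 8.08% of 7947 were higher and 21.0% lower at 3 days, and 14.7% of 4403 higher and 17.9% lower at 28 days, with medians of -0.11 and 0.02. Mbp, myelin basic protein, stood at 138 CPM against 1409 at 3 days and 164 against 2855 at 28 days. C4b, a complement component, stood at 7.96 CPM (5 UMIs) against 501 CPM (538 UMIs) at 28 days. In contrast, Amigo2 was higher than in the surroundings by a log2 difference of 3.92 [3.65 to 4.21] and 4.84 [4.40 to 5.36], and Rgs14 by 3.13 [2.83 to 3.45] and 4.54 [4.02 to 5.16].

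Several genes differed strongly between the Spink8 bins and their surroundings. At 3 days those surroundings also took in bins around the 23 Spink8 bins outside the arc. Nr2f2, a nuclear receptor, had 0 UMIs in the Spink8 bins and 304 UMIs in the surroundings at 3 days, and Bmp3, a secreted signalling protein, 0 against 214. Penk, the enkephalin precursor, stood at 51.8 against 802 CPM (log2 -3.93 [-4.47 to -3.48]) and Calb1, the calcium buffer calbindin, at 4.32 against 111 CPM. At 28 days Strip2, Rasl11b and Necab2, the last a neuronal calcium-binding protein, were higher than in the surroundings by log2 3.12, 2.83 and 2.73.

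Along the arc at 3 days, Amigo2 and Rgs14 were lowest at the outer end, and of the 4 listed CA3 genes only Iyd clearly rose towards it. The arc was cut into 4 parts of like size from the dividing column outwards. Amigo2 stood at 735, 812, 709 and 314 CPM from the inner to the outer part at 3 days and at 1080, 1319, 1111 and 867 CPM at 28 days. Rgs14 followed at 398, 418, 361 and 217 CPM and at 569, 766, 701 and 547 CPM. For Amigo2 the interval of the outer part lay below those of the 3 other parts at 3 days (236 to 409) and overlapped that of the inner part at 28 days (730 to 1022 against 912 to 1270). For Rgs14 at 28 days the outer and inner parts hardly differed (439 to 673 against 449 to 712). Iyd ran the other way, at 42.2, 24.2, 96.7 and 126 CPM at 3 days and 7.40, 0, 6.94 and 67.6 CPM at 28 days. It rests on few UMIs, and its intervals in the inner and outer parts at 3 days overlap (17.0 to 86.9 and 78.7 to 190). Bok stood at 181, 230, 129 and 217 CPM at 3 days and 59.2, 18.8, 55.5 and 105 CPM at 28 days. Grik4 stood at 223, 236, 232 and 240 CPM and at 111, 163, 222 and 209 CPM. Nectin3 at 28 days was also highest in the outer part, at 66.6, 37.7, 83.3 and 209 CPM, but at 3 days its parts lay between 199 and 266 CPM. Over all Spink8 bins, far-lying ones included, the outermost over the innermost of 4 parts gave a log2 difference of -1.76 for Amigo2 at 3 days, and 0.21 in patches of at least 50 bins, which leave out the patch of 49 bins at the outer end of the arc.

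**Figure D3:**
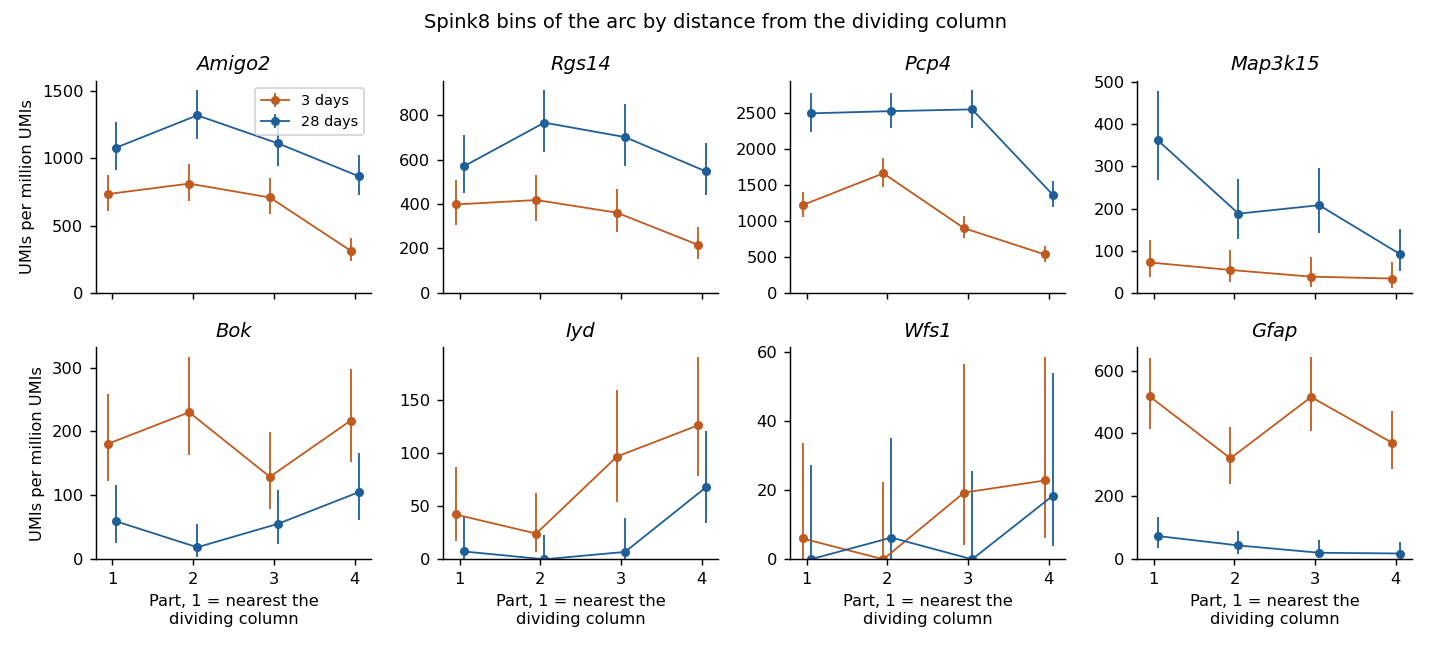
Levels in UMIs per 1000000 UMIs of 8 genes in 4 parts of the arc of Spink8 bins, from part 1 nearest the dividing column to part 4, at 3 days (orange, 186 bins) and 28 days (blue, 209 bins), with exact 95% counting intervals. Amigo2 and Rgs14 are lowest in part 4 at 3 days, while at 28 days their intervals in parts 1 and 4 overlap, and Gfap at 3 days (321 to 518) lies above every part at 28 days (18.4 to 74.0).

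Gfap and Vim, which are raised in reactive astrocytes, stood lower in the Spink8 bins at 28 days than at 3 days. Over all genes, 157 of 3274 (4.80%) were higher in Spink8 bins at 28 days than at 3 days and 152 (4.64%) lower, with a median of -0.01. Gfap came to 286 UMIs at 411 CPM (365 to 462) at 3 days and 31 UMIs at 49.3 CPM (33.5 to 70.0) at 28 days, a log2 difference of -3.04 [-3.64 to -2.52]. Within the arc alone Gfap stood at 429 CPM (381 to 482) and 38.3 CPM (24.3 to 57.4). Vim, another intermediate filament, stood at 203 and 19.1 CPM, and Serpina3n, a secreted protease inhibitor, at 272 and 158 CPM. These were the 3 reactive astrocyte genes measured of 13 listed, and all 3 were lower. Gfap and Vim reached the minimum of 100 UMIs through the section at 3 days (Vim with 141 against 12 UMIs), so the count leans towards lower values and supports nothing. In the surroundings Gfap stood at 929 and 879 CPM, in the other bins of the opposite side at 312 and 182 CPM, and over the whole injured side at 1292 and 1305 CPM. Over the same contrast, 6 of 7 measured reactive astrocyte genes were lower in the surroundings (median -1.43, where 6.90% of 8320 genes were higher and 8.16% lower) and 8 of 11 in the other bins (-0.78, where 1.64% of 13803 were higher and 1.96% lower). Both sets held more UMIs at 3 days (3635839 against 1073042, and 81977220 against 44369843), so a gene could reach the minimum mainly through that section. These counts and medians can therefore lean towards lower values too and support nothing. The surroundings held 3595 bins at 3 days and 1865 at 28 days, and those at 3 days took in bins around the 23 Spink8 bins outside the arc. The 2 measured dentate granule genes were higher in the surroundings at 28 days, by log2 1.68 and 2.39. Setting surroundings of 1 section against those of the other therefore compares partly different tissue, here and below.

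Homeostatic astrocyte genes did not follow. Of 6 measured, 2 were higher at 28 days, Glul at 61.9 and 137 CPM and S100b at 80.6 and 138 CPM, 1 was lower, Atp1b2 at 197 and 123 CPM, and 3 were past the fold in neither direction. Glul and S100b were also higher in the surroundings, by log2 1.10 [0.93 to 1.26] and 0.75 [0.53 to 0.96]. Glul encodes glutamine synthetase, which clears glutamate. Apoe, the main brain apolipoprotein, stood at 414 and 710 CPM, and in the surroundings at 1975 and 4577 CPM. Surroundings in the 2 sections hold partly different tissue, so these values are not a like for like comparison.

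CA2 genes were higher at 28 days and CA3 genes mostly lower. All 5 measured CA2 genes were higher (median 0.92), among them Map3k15 by log2 2.14 [1.60 to 2.75], Pcp4 by 1.05 [0.92 to 1.18], Rgs14 by 0.92 [0.68 to 1.16] and Amigo2 by 0.83 [0.65 to 1.01]. Map3k15, with 133 UMIs at 28 days and 33 at 3 days, reached the minimum of 100 UMIs through the section at 28 days, and Bok, with 40 and 127, through that at 3 days, so the counts lean on them. In the surroundings, which hold partly different tissue in the 2 sections, Pcp4 ran the other way, at -0.36 [-0.49 to -0.24]. It stood at 0.39 in the other bins of the opposite side. Amigo2 stood at -0.08 [-0.64 to 0.42] in the surroundings and 0.42 in those other bins, and was also higher in the Fibcd1 bins of the opposite side, at 0.68 [0.26 to 1.11]. Among CA3 genes, Bok was lower by log2 -1.51 and Nectin3 by -1.25, while Grik4 at -0.30 was past the fold in neither direction. Several of these CA2 and CA3 genes also differed along the arc. With only the innermost of 4 parts of all Spink8 bins (53 bins at 3 days and 56 at 28 days), 37 genes were higher and 32 lower at 28 days. Fewer genes reach 100 UMIs there and their number is not given, so these counts cannot be set against those of all Spink8 bins.

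Genes outside the lists also differed between the Spink8 bins of the 2 sections. Ptn, the heparin-binding growth factor pleiotrophin, stood at 137 and 376 CPM (log2 1.45 [1.11 to 1.82]), and in the surroundings at 270 and 281 CPM. Kcnj4, an inward rectifier potassium channel, stood at 168 and 412 CPM (1.29 [0.97 to 1.62]), and Rapgef5, an activator of Rap GTPases, at 341 and 731 CPM (1.10 [0.87 to 1.33]). Rapgef5 was also higher in the surroundings, by 0.76 [0.50 to 1.02]. Lower at 28 days were Nptx1, a synaptic pentraxin, at 279 and 57.3 CPM (-2.27 [-2.84 to -1.77]), and its receptor Nptxr at 1449 and 667 CPM (-1.12 [-1.29 to -0.95]). In the surroundings Nptx1 stood at 349 CPM at 28 days and 245 CPM at 3 days, a log2 difference of 0.51 [0.33 to 0.68] that did not pass the fold. Lmo4, a transcriptional cofactor, stood at 329 and 102 CPM, and Prkcb, protein kinase C beta, at 315 and 107 CPM. Outside the Spink8 bins Prkcb was also lower in the surroundings, by log2 -0.64, and Nptxr in the other bins of the opposite side, by -0.84. All values of the surroundings given here set partly different tissue of the 2 sections against each other.

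Mitochondrially encoded genes were higher at 28 days in the Spink8 bins, their surroundings and the other bins of the opposite side. mt-Atp6 differed by log2 1.19, 1.13 and 0.81 in these sets, and by 0.11 [-0.26 to 0.47] in the Fibcd1 bins of the opposite side. In those Fibcd1 bins mt-Nd2 differed by 0.60 [0.11 to 1.10], mt-Co3 by 0.57 [0.25 to 0.89] and mt-Co2 by 0.50 [0.28 to 0.71], of which mt-Nd2 passed the fold. The 13 mitochondrial genes together took 0.741% of UMIs in Spink8 bins at 3 days and 1.34% at 28 days, against 1.26% and 1.92% in the other bins. In the Fibcd1 bins they took 0.700% and 0.882% on the opposite side and 0.905% and 0.807% on the injured side. Of the nuclear genes of oxidative phosphorylation, 0 of 13 measured passed the fold in either direction in the Spink8 bins (median 0.01).

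Other neuronal lists are given beside all genes of this contrast, of which 4.80% were higher and 4.64% lower at 28 days. Of 12 pyramidal neuron genes 1 was higher and 0 lower (median 0.08), and of 10 genes shared by all neurons 0 passed the fold (median 0.06). Likewise 0 of 8 measured glutamate receptor subunits and 0 of 13 presynaptic release genes passed it, with medians of 0.24 and -0.15. Of 13 ion channel genes 3 were higher. Of 7 immediate early genes, which respond to neuronal activity, 1 was lower, Egr3 at 124 and 50.9 CPM.

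**Figure D4:**
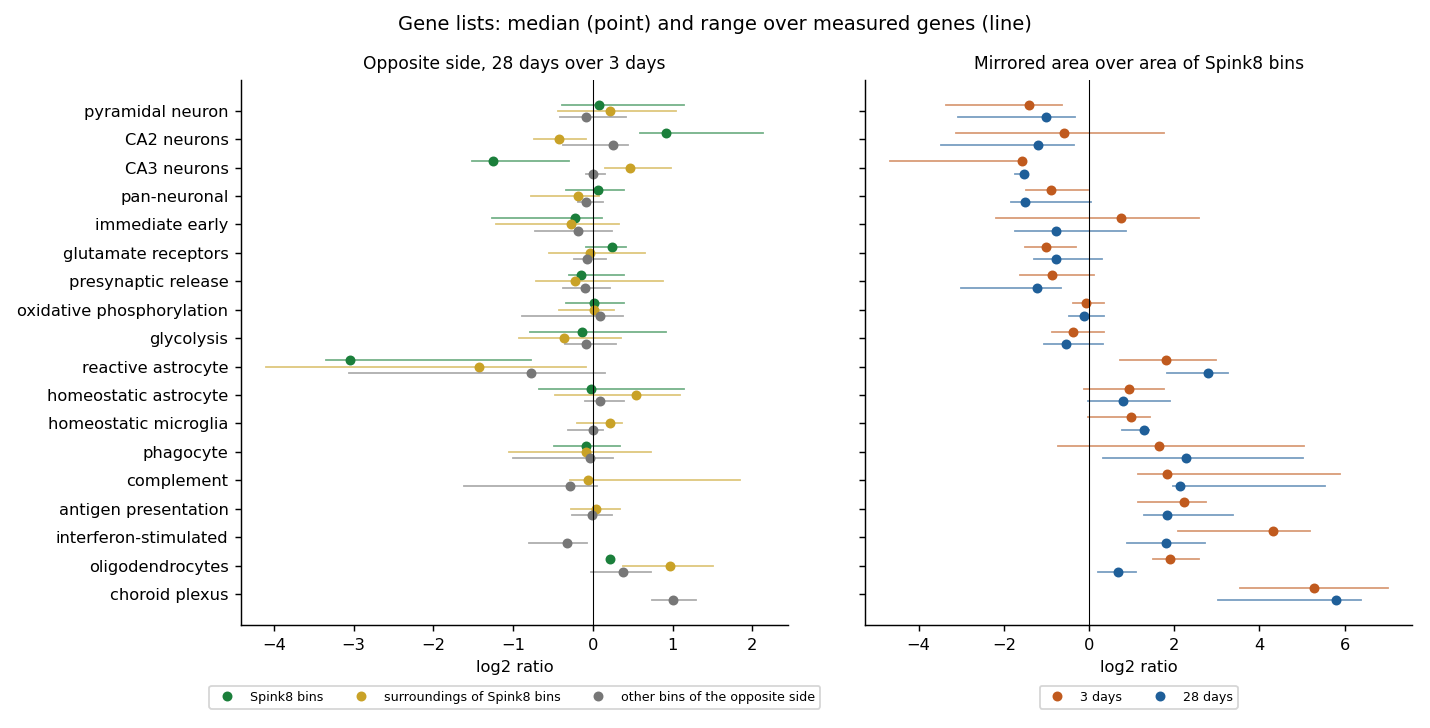
Gene lists with the median (point) and range (line) of log2 differences over their measured genes: left, 28 days over 3 days in Spink8 bins (green), their surroundings (yellow) and other bins of the opposite side (grey); right, mirrored area over the area of the Spink8 bins at 3 days (orange) and 28 days (blue). On the left, reactive astrocyte genes in Spink8 bins have a median of -3.04 and CA2 genes 0.92; on the right, reactive astrocyte genes have medians of 1.81 and 2.79 and pyramidal neuron genes -1.40 and -1.01.

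Fibcd1 bins carried genes best known from the medial habenula, a nucleus of the epithalamus beside the ventricle at the midline. The genes named next lead among those of at least 50 UMIs in the bins. Against other bins at 28 days, Chrnb4, a nicotinic receptor subunit, stood at 279 against 2.66 CPM, Chrnb3 at 276 against 2.86, Chrna3 at 216 against 3.34, and Pou4f1, a POU domain transcription factor, at 181 against 1.99. Tac2, the neurokinin B precursor, was among the leading genes in both sections, at 1125 against 35.8 CPM at 3 days and 1363 against 31.5 at 28 days. Over all genes in this contrast, 23.8% of 13920 were higher and 20.0% lower at 3 days, and 22.6% of 13579 higher and 25% lower at 28 days. Of 12 pyramidal neuron genes 9 were lower in each section. In these bins Hpca stood at 32.6 and 88.5 CPM on the injured and opposite sides at 3 days and at 18.4 and 45.8 CPM at 28 days, far below the Spink8 bins. Their largest patches lay between 136 and 392 µm from the dividing column.

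The patches of Fibcd1 bins were of several kinds. At 28 days a patch of 46 bins on the injured side held Tac1, the substance P precursor, at 537 CPM, Calb2, the calcium buffer calretinin, at 2533 CPM and Chrna3 at 12.8 CPM. A patch of 23 bins on the same side held 22.9, 160 and 343 CPM of these genes. Hence Calb2 and Chrna3 ran opposite to each other between these patches. On the opposite side at 3 days the same contrast appeared between a patch of 49 bins, with 824 CPM of Tac1, 2273 of Calb2 and 9.93 of Chrna3, and a patch of 36 bins, with 41.7, 334 and 313 CPM. Other patches at 28 days held both genes. Calb2 and Chrna3 stood at 933 and 300 CPM in 16 bins on the injured side, and at 1044 and 219 CPM in 56 bins on the opposite side. On the injured side at 3 days a patch of 16 bins held 0 UMIs of Tac2, Pou4f1, Chrna3 and Nwd2 and stood at 3006 CPM of Calb2 and 1035 CPM of Tcf7l2, a transcription factor of thalamic neurons. A patch of 13 bins there held Tac2 at 1261 CPM and Calb2 at 2437 CPM.

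The injured side held 39 of 358 chosen bins at 3 days (10.9%) and 96 of 408 at 28 days (23.5%), all of them Fibcd1 bins, while 32.7% and 47.9% of all bins lay on that side. These shares turn on the dividing column and on the distances covered, since they were 34.0% and 64.7% at matched distances from the column and 26.5% and 41.4% with the column 15 bins higher. All chosen bins of the injured side against all of the opposite side therefore set Fibcd1 bins against a mixture of both kinds. In that contrast 395 of 2584 genes (15.3%) were higher and 724 (28.0%) lower at 3 days, and 457 of 2530 (18.1%) higher and 721 (28.5%) lower at 28 days. All measured pyramidal neuron genes were lower, 11 at 3 days and 10 at 28 days, with medians of -3.79 and -3.63. Chosen bins of the opposite side held more UMIs (942691 against 61411 at 3 days, 802943 against 162769 at 28 days). Pyramidal neuron genes could reach the minimum through that side, so their counts and medians lean towards lower values and support nothing. Hpca stood at 32.6 against 3296 CPM and 18.4 against 4894 CPM, Ptk2b, a tyrosine kinase of forebrain neurons, at 16.3 against 2768 CPM and 12.3 against 3530 CPM, and Calb2 at 2410 against 278 and 1505 against 168. All 4 and 3 measured oligodendrocyte genes were higher (medians 1.91 and 1.44). In bins around all chosen bins, 64 to 192 µm away, the median of the reactive astrocyte genes, injured over opposite side, was -0.69 at 3 days and 0.30 at 28 days, and the latter was -0.33 in patches of at least 10 bins. These values set different tissue against each other on the 2 sides.

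Fibcd1 bins lay on both sides, but in patches of unlike kinds and distances. On the injured side at 3 days, besides the patches of 16 and 13 bins, a patch of 8 bins at 1560 µm and one of 2 bins at 2008 µm held 0 UMIs of Tac2 and Pou4f1. Comparing the sides therefore sets partly different tissue against each other. At 28 days, with 96 bins on the injured and 89 on the opposite side, 5 of 531 genes (0.942%) were higher on the injured side and 12 (2.26%) lower, with a median of -0.02. Calb2 stood at 1505 against 767 CPM, a log2 difference of 0.97 [0.66 to 1.29]. Gucy1a1, a guanylate cyclase subunit, stood at 1806 against 1225 CPM (0.56 [0.30 to 0.82]) and Tac2 at 1524 against 1214 CPM (0.33 [0.06 to 0.60]), neither past the fold. Lower were Camk2n1, an inhibitor of CaM kinase II, at 473 against 842 CPM (-0.83 [-1.25 to -0.42]), and Plch2, a phospholipase C, at 485 against 796 CPM (-0.71 [-1.13 to -0.30]). In every list with a measured gene, 0 genes passed the fold, among them 8 of the genes shared by all neurons (median -0.11) and 3 oligodendrocyte genes (0.28). A column 15 bins higher gave 173 genes higher and 67 lower, and matched distances from the column gave 1 and 0. The number of genes measured in these settings can change and is not given. At matched distances even Calb2 had no value at 28 days, so these counts cannot be set against the 5 and 12 above.

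At 3 days the 39 injured-side Fibcd1 bins held 61411 UMIs, against 237368 in 105 bins of the opposite side, and 46 of 406 genes (11.3%) were higher and 86 (21.2%) lower. Nptxr stood at 2312 against 417 CPM (log2 2.47 [2.09 to 2.86]), Stmn1, a microtubule regulator, at 1905 against 282 CPM, and Ywhah, a 14-3-3 protein, at 1694 against 476 CPM. Synpr, a synaptic vesicle protein, had 1 UMI against 287 (log2 -5.63 [-11.52 to -3.72], and -0.25 at 28 days), and Slc17a7, a vesicular glutamate transporter, stood at 147 against 923 CPM (-2.58 [-3.80 to -1.70], and 0.02 at 28 days). Tac2 was lower by log2 -1.38 [-1.99 to -0.86]. Calb2 stood at 2410 against 1100 CPM (1.13 [0.83 to 1.43]), so it was higher on the injured side in both sections. A dividing column 15 bins higher turned this value to -0.23 at 3 days. All 3 measured oligodendrocyte genes were higher (median 1.06). Without the patch of 16 bins that held no Tac2, 40 genes were higher and 67 lower, and at matched distances from the column 16 and 20. How many genes were measured in these settings is not given, so these counts cannot be set against the 46 and 86 above.

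**Figure D5:**
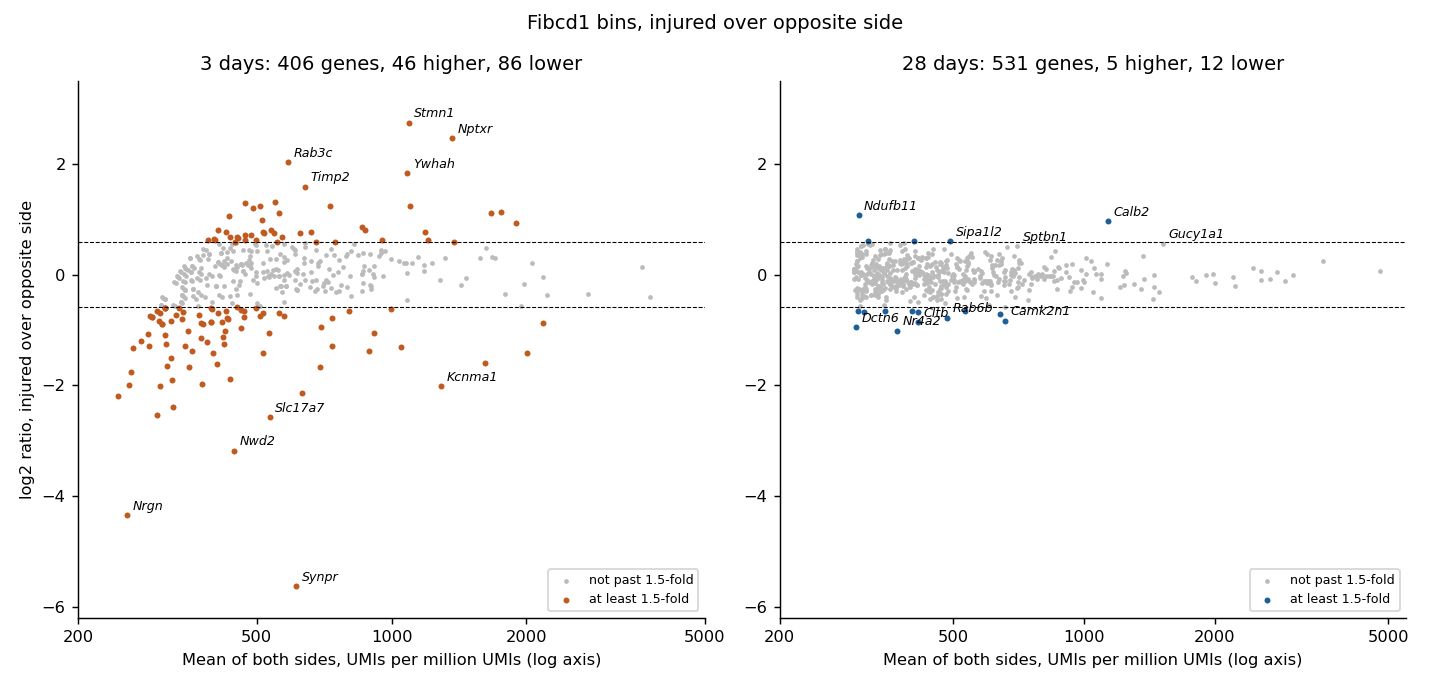
Genes of the Fibcd1 bins at 3 days (left, 406 genes) and 28 days (right, 531 genes), with the mean level of both sides in UMIs per 1000000 UMIs on a log axis and the log2 ratio of the injured over the opposite side; dashed lines mark 1.5-fold and coloured points lie past it. At 3 days 46 genes lie above and 86 below the lines, at 28 days 5 and 12, with Calb2 at 0.97.

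Between the sections, Fibcd1 bins of the opposite side differed in 30 of 761 genes higher (3.94%) and 23 lower (3.02%) at 28 days. Gfap was lower by log2 -1.80 [-2.37 to -1.29], from 725 to 206 CPM. Tac2 stood at 1289 and 1214 CPM and Pou4f1 at 160 CPM at both times. Of 9 measured genes shared by all neurons, 0 passed the fold (median 0.08).

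Since no Spink8 bin lay on the injured side, the area within 240 µm of the Spink8 bins was set against a mirrored area. The mirrored area lay within 240 µm of the Spink8 positions reflected across the dividing column. This comparison was chosen after the data were seen. At 3 days the area of the Spink8 bins also took in bins around the 23 outside the arc, which had no mirrored counterpart on the array. The dividing column need not be the midline. At 28 days like patches of Fibcd1 bins, of 23 and 18 bins, lay at a median of 280 µm from it on the injured side and 136 µm on the opposite side. The mirrored area held 2595 and 1981 bins with 730 and 697 UMIs per bin, against 6137 and 3363 bins with 1115 and 805. In it 2038 of 10207 genes (20.0%) were higher and 1436 (14.1%) lower at 3 days, and 1404 of 7989 (17.6%) higher and 1313 (16.4%) lower at 28 days, with medians of 0.04 and 0.02. Over whole sides, 17.9% of genes were higher and 4.76% lower on the injured side at 3 days, and 10.3% and 1.31% at 28 days.

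Neuronal genes of the arc were lower in the mirrored area, which need not hold the same tissue. The area was drawn around bins chosen for Spink8, and no bin of the injured side was chosen through that gene. Lower values of genes that lead the Spink8 bins therefore follow from the choice and are given as description. Rgs14 stood at 18.8 against 214 CPM at 28 days (log2 -3.48 [-4.13 to -2.94]), Amigo2 at 51.4 against 350 CPM (-2.76 [-3.14 to -2.42]) and Neurod6 at 57.2 against 486 CPM (-3.08 [-3.43 to -2.76]). At 3 days Amigo2 stood at 14.8 against 118 CPM and Hpca at 168 against 1730 CPM. All 12 pyramidal neuron genes were lower at 3 days and 11 of 12 at 28 days (medians -1.40 and -1.01), and all 4 CA3 genes in both (-1.58 and -1.52). The area of the Spink8 bins held more UMIs (6841087 against 1893099 at 3 days, 2706264 against 1381107 at 28 days). Genes high in the arc could reach the minimum through it, so these counts and medians lean towards lower values and support nothing. Prox1 was higher, at 75.5 against 21.5 CPM and 154 against 70.2 CPM. Peptide and receptor genes such as Penk, at 54.4 against 717 CPM, and Npy2r, at 1.58 against 133 CPM, were also lower at 3 days. Penk was not a gene of the arc, since it was lower in the Spink8 bins than in their surroundings. The area of the Spink8 bins at 3 days took in bins around those outside the arc, so these 2 differences need not concern the arc.

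Glial and immune genes were higher there. Gfap stood at 3077 against 855 CPM at 3 days and 2782 against 534 CPM at 28 days. All measured reactive astrocyte genes were higher (10 at 3 days, median 1.81, and 4 at 28 days, median 2.79), as were all measured complement genes (8, 1.82, and 7, 2.14). Of phagocyte genes, 17 of 18 and 16 of 17 were higher (1.65 and 2.28). Of the interferon-stimulated genes, 8 were measured at 3 days and 2 at 28 days, all of them higher (medians 4.33 and 1.81). Isg15, a ubiquitin-like modifier, stood at 115 against 3.07 CPM at 3 days and at 5.07 against 2.22 CPM, from 7 and 6 UMIs, at 28 days. C3, the central complement component, stood at 180 against 3.70 CPM at 28 days, and Apoe at 14899 against 3205 CPM. Isg15 had 217 UMIs in the mirrored area and 21 in the area of the Spink8 bins at 3 days. Genes such as Isg15 reached the minimum of 100 UMIs through the mirrored area. Counts and medians of the lists that were higher there therefore lean towards it and support nothing.

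Markers of choroid plexus and myelin also differed between the areas. Ttr, transthyretin of the choroid plexus, stood at 5997 against 46.5 CPM at 3 days and 38656 against 463 CPM at 28 days, and all 2 and 7 measured choroid plexus genes were higher (medians 5.28 and 5.81). Oligodendrocyte genes were higher too, 10 of 10 at 3 days (1.89) and 7 of 10 at 28 days (0.67). The part of choroid plexus and white matter in the other differences was not tested. Oxidative phosphorylation genes differed little, 0 of 17 passing the fold in either section (medians -0.07 and -0.13).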

How the data were processed

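The deposited counts are UMIs per gene and 16 µm bin, which the authors made with Space Ranger 4.0.1 and the mouse probe set 2.0 (the submitters' processing notes also list mm10, with no role given). Probes count RNA at fixed sites, so levels of different genes are not comparable per length. Members and gene lists were chosen with earlier results of these data known. Bins under 100 UMIs (1.93% and 2.15%) were left out, and counts were summed over sets of bins. CPM is UMIs of a gene per 1000000 UMIs of the set. Intervals were exact Poisson for CPM and conditional binomial for ratios (scipy 1.17.1, numpy 2.4.6, pandas 2.3.3, Python 3.11.15). Calculations were tested on simulated data. Named genes were, among genes of at least 200 UMIs over both sides of the chosen bins, the 8 with the highest lower and the 8 with the lowest upper bounds, the listed genes, the 10 highest over other bins, and the 5 largest and 5 smallest differences between times. Other genes were named after their values were seen. Surroundings were bins 4 to 12 away and areas bins within 15. Alternatives covered thresholds, patches, the dividing column, scaling (edgeR 4.0.16 TMM in R 4.3.3) and minimum counts. Positions are GRCm38. Of the CA1 markers, 1 is not reported here. Cell segmentation and images were not used here.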

Additional observations from a re-analysis of the deposited data

Results flagged for a closer look

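Among genes of the Fibcd1 bins at least 1.5-fold apart at both times with intervals that exclude 0, 2 ran in opposite directions at the 2 times, injured over opposite side, and the difference between times was not tested. Of all genes, 46 of 406 were higher and 86 lower at 3 days, and 5 of 531 higher and 12 lower at 28 days. How many were measured at both times is not given, so the 2 genes cannot be set against a share of all genes. Camk2n1, an inhibitor of CaM kinase II, had a log2 difference of 0.94 at 3 days, with an interval of [0.65 to 1.23], and of -0.83 [-1.25 to -0.42] at 28 days. Sipa1l2, a postsynaptic GTPase activator, had -0.69 at 3 days, with an interval of [-1.50 to -0.02], and 0.61 [0.15 to 1.08] at 28 days. The injured side held 39 Fibcd1 bins at 3 days and 96 at 28 days, and its patches differed in Tac2, Calb2 and Chrna3.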

How the results depend on the processing

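No paired analysis was possible because each time had 1 section and the labels give no replicate numbers. In 16 other settings and 6 more chosen after seeing the data, 316 of the values that answer a comparison moved by less than 1.5 times or less than their counting interval. Another 131 moved and 6 reversed, and the causes were not tested. A log2 value smaller in size than its counting error could not be called reversed, so the 316 can include changes of sign. Counts of genes below are over the genes measured in each setting, whose number can change and is not given. Of these 6 reversals, 5 concerned the reactive astrocyte median around the chosen bins at 28 days (injured over opposite side, 0.30), which was -0.21 with blocks of at least 3 UMIs, -0.85 with at least 6, -0.02 in bins with a defining UMI of their own, -1.83 in patches of at least 50 bins and -0.33 in patches of at least 10. It was also 0.96 with at least 300 UMIs per bin, 0.79 with the dividing column 15 bins lower, 0.83 with pan-neuronal scaling and 0.58 with at least 300 UMIs per gene, and at 3 days -2.95 with blocks of at least 6 and -3.46 in patches of at least 10. The remaining reversal was Amigo2 in the outermost over the innermost part at 3 days, at 0.21 in patches of at least 50 bins, which leave out the patch of 49 bins at the outer end, and it was -3.64 with blocks of at least 3. Among single named genes, counted apart from these, Calb2 in Fibcd1 bins at 3 days reversed to -0.23 with the dividing column 15 bins higher.

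The share of chosen bins on the injured side, in percent, at 3 and 28 days was 26.5 and 41.4 with the dividing column 15 bins higher, 34.0 and 64.7 at matched distances and 0 and 0 in patches of at least 50 bins. At 3 days it was 6.42 with the column 15 bins lower and at 28 days 18.3 with blocks of at least 6. Spink8 bins on the injured side at 28 days numbered 6 with blocks of at least 3 and 1 with the column 15 bins higher. CA1 genes lower in Spink8 bins at 3 days (5 with Pou3f1, which had 0 UMIs) numbered 1 with UMIs per bin as the scale, 3 with a pseudocount of 5 and 3 at 2-fold.

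Genes higher and lower in Fibcd1 bins on the injured side at 3 days numbered 100 and 198 with blocks of at least 3, 6 and 17 with at least 6, 18 and 21 in bins with a defining UMI, 16 and 20 at matched distances, 14 and 185 with UMIs per bin, 111 and 45 with pan-neuronal scaling, 166 and 292 with at least 50 UMIs per gene, 6 and 8 with at least 300, and 15 and 43 at 2-fold. Higher genes there numbered 29 with TMM, and lower genes 29 with the column 15 bins higher and 49 with a pseudocount of 5. At 28 days they numbered 34 and 58 with blocks of at least 3, 173 and 67 with the column 15 bins higher, 1 and 0 at matched distances, 2 and 42 with UMIs per bin, 17 and 6 with pan-neuronal scaling, 80 and 102 with at least 50 UMIs per gene, 1 and 0 with at least 300, and 1 and 1 at 2-fold. Higher genes numbered 2 with a pseudocount of 5 and 2 in patches of at least 10, and lower genes 5 in bins with a defining UMI.

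For Spink8 bins at 28 over 3 days, higher and lower genes numbered 98 and 81 in bins with a defining UMI, 96 and 86 in patches of at least 50, 49 and 461 with UMIs per bin, 363 and 410 with at least 50 UMIs per gene, 41 and 24 with at least 300, 24 and 28 at 2-fold, and 37 and 32 in the innermost part. Lower genes numbered 80 with blocks of at least 6 and higher genes 96 with pan-neuronal scaling.

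For all chosen bins, injured over opposite side, higher and lower genes at 3 days numbered 128 and 381 in bins with a defining UMI, 16 and 23 at matched distances, 158 and 1116 with TMM, 41 and 1903 with UMIs per bin, 1475 and 292 with pan-neuronal scaling, 1205 and 1215 with at least 50 UMIs per gene, 47 and 215 with at least 300, 962 and 261 with a pseudocount of 5, and 138 and 458 at 2-fold. Higher genes numbered 647 with blocks of at least 3 and 180 with at least 6. At 28 days they numbered 164 and 454 in bins with a defining UMI, 60 and 115 at matched distances, 133 and 1383 with UMIs per bin, 1257 and 381 with pan-neuronal scaling, 1214 and 1118 with at least 50 UMIs per gene, 42 and 222 with at least 300, and 188 and 462 at 2-fold. Higher genes numbered 189 with blocks of at least 6 and 212 with TMM.

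The oligodendrocyte median of that comparison at 3 days was 1.27 with blocks of at least 6, 2.49 with the column 15 bins lower, 1.0 with UMIs per bin and 2.72 with pan-neuronal scaling. At 28 days it was 1.97 with blocks of at least 6, 1.85 in bins with a defining UMI, 0.41 at matched distances, 0.84 with UMIs per bin and 2.10 with pan-neuronal scaling. The phagocyte median of the mirrored area at 3 days was 1.32 with blocks of at least 3, 1.08 with at least 6, 1.12 in patches of at least 50, 1.03 in patches of at least 10, 1.12 and 2.00 with the column 15 bins higher and lower, 1.04 with UMIs per bin and 2.58 with pan-neuronal scaling, and at 28 days 1.88 with the column 15 bins higher and 3.77 with pan-neuronal scaling. Patches of at least 50 bins left no injured-side bins, and some genes had no value at matched distances or with at least 300 UMIs per gene. Depth limits the Fibcd1 bins of the injured side at 3 days, where 3 counts correspond to 48.9 CPM.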
